A study of Mus musculus with 9 samples.

Results

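Transcripts used as markers of T cells, natural killer (NK) cells and B cells were followed in single-cell libraries made from retinas. They are called lymphocyte genes below, although Ccl5 is also made by myeloid cells. The cells had been sorted for CD45 and CD11b, which enriched for immune cells. The genes were Cd3e, Cd3d, Cd3g, Trbc2, Nkg7, Ms4a4b, Ccl5 and Cd79a, 8 genes matched by symbol among the 27998 genes of the count tables. Of these, 7 were measured, and Trbc2 was not analysed here. They were chosen from their counts in these same libraries, so their levels, their co-detection and their course over the days are given as a description without a test. All mice, the controls included, were female and Arr1-/-, aged between 2 and 5 months. Arr1-/- mice lack visual arrestin and lose photoreceptors in constant light. All were born and kept in constant darkness. Mice of day 0 stayed in darkness, and mice of day 7 and day 20 spent 7 or 20 days in constant room light of about 200 lux. Each day had 3 libraries. The sample titles give the same figures as hours, and the days of the treatment labels are used here. The labels do not tie a library to a mouse, so a p-value measures only the spread between libraries, which may be technical.

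T cells recognise antigen through a receptor whose chains reach the surface and signal only together with the invariant chains CD3ε, CD3δ and CD3γ, encoded by Cd3e, Cd3d and Cd3g. Trbc2 encodes a constant part of the receptor's β chain. NKG7 is a protein of the cytotoxic granules of NK cells and CD8 T cells, Ms4a4b is expressed in T cells and NK cells, and CCL5 is a chemokine made by both and also by myeloid cells. CD79A carries the signal of the B cell receptor. Ctss (cathepsin S, a lysosomal protease) and Tyrobp (the adaptor DAP12, through which many myeloid and NK receptors signal) were read in the same barcodes because both are abundant in microglia and macrophages. A healthy retina holds few lymphocytes, and its resident immune cells are mainly microglia.

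The libraries listed many of the same barcodes. Each barcode was therefore assigned to a single library, the one with its highest total of unique molecular identifiers (UMIs, counted molecules), which left 1365 barcodes and 1465823 UMIs, 48.3% of the UMIs deposited. Per library this gave 77 to 241 barcodes, 47109 to 312573 UMIs and a median of 315 to 882 UMIs per barcode. Day 7 replicate 3 and day 20 replicate 3 were the shallowest libraries, and a count of 0 there allowed up to 63.7 and 50.8 CPM (UMIs of a gene scaled to a common library total of 1000000 UMIs) respectively, counting error only. Day 7 replicate 1 was the deepest, with a corresponding limit of 9.60 CPM. Transcripts of rod photoreceptors moved with the day. A list of 8 rod genes summed to 19692, 4428 and 25750 CPM in the day 0 libraries, against 295 to 2462 CPM in the 6 light libraries. The part of this shift in the values below was not tested.

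The 3 CD3 genes lie next to each other on mouse chromosome 9 (GRCm38). Cd3g occupies chr9:44969572-44980431 on the minus strand, Cd3d chr9:44981786-44987339 on the plus strand and Cd3e chr9:44998740-45009627 on the minus strand. Cd3g and Cd3d are transcribed away from each other from starts 1354 bases apart. Cd3e overlaps other gene models of the annotation, so reads there may be shared with them. All 3 CD3 genes were found together in 4 barcodes, whereas 28 barcodes held only 1 of them. The 250 bases upstream of each RefSeq start are shown (5′ to 3′ on the gene's strand, GRCm38.p6). Capitals mark matches on either strand to the E-box CANNTG and the ETS core AGGAAG.
Cd3g (chr9:44980432-44980681): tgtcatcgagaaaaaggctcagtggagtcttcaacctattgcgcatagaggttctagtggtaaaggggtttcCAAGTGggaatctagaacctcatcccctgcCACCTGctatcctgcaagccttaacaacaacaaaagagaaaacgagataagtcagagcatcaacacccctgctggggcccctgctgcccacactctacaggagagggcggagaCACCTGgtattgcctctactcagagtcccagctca
Cd3d (chr9:44981536-44981785): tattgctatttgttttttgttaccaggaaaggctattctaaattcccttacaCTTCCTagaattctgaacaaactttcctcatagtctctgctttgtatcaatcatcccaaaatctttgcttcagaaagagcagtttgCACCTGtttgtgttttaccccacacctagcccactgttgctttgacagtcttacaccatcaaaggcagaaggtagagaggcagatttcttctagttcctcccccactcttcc
Cd3e (chr9:45009612-45009861): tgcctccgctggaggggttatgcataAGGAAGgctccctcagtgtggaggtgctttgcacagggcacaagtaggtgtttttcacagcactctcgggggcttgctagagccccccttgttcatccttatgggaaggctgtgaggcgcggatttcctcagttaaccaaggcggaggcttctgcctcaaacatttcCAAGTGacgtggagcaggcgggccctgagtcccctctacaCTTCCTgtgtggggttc
The Cd3g window held 3 E-box letters and no ETS core, the Cd3d window 1 of each, and the Cd3e window 1 E-box and 2 ETS cores. The RUNX core TGTGGT was in none of the 3 windows on either strand. In windows of the same length before 32851 mouse starts, the E-box letters occurred in 66.2%, the ETS core in 29.5% and the RUNX core in 14.0%. These matches describe the letters only.

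The other measured genes lie elsewhere: Nkg7 on chr7:43437073-43438249, Cd79a on chr7:24897381-24902197, Ms4a4b on chr19:11443553-11467055 and Ccl5 on chr11:83525778-83530518. The 7 measured genes had 1000 UMIs in all, of which Ccl5 supplied 765. Nkg7 had 60 UMIs, Cd3g 56, Ms4a4b 52, Cd3d 43, Cd3e 14 and Cd79a 10. At least 1 of the genes was present in 177 of the 1365 barcodes, and in 125 of these it was Ccl5 alone. UMIs of 2 or more of the genes were found in 26 barcodes, with 2 genes in 18 barcodes, 3 in 3, 4 in 2 and 6 in 3.

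Apart from Ccl5, the UMIs of the genes were concentrated in very few barcodes. Only 6 barcodes held at least 2 UMIs of each of at least 2 of the genes, and they are called leading barcodes A to F below. With 2.50% of all UMIs, they held 595 of the 1000 UMIs of the genes. Since they were picked by UMIs of these same genes, their high shares, and the low counts elsewhere, follow in part from that choice. The leading barcodes held 47 of 52 Ms4a4b UMIs, 11 of 14 Cd3e UMIs, 43 of 56 Cd3g UMIs, 45 of 60 Nkg7 UMIs and 30 of 43 Cd3d UMIs. They held 419 of 765 Ccl5 UMIs and no Cd79a. Outside them, no barcode had more than 1 UMI of any of Cd3e, Cd3d, Cd3g, Nkg7 and Ms4a4b, whereas Ccl5 reached 64 UMIs in a barcode. The leading barcodes held 815 to 12518 UMIs each, and no doublet caller was run. D and E had the second most and the most UMIs of their library.

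**Figure D1:**
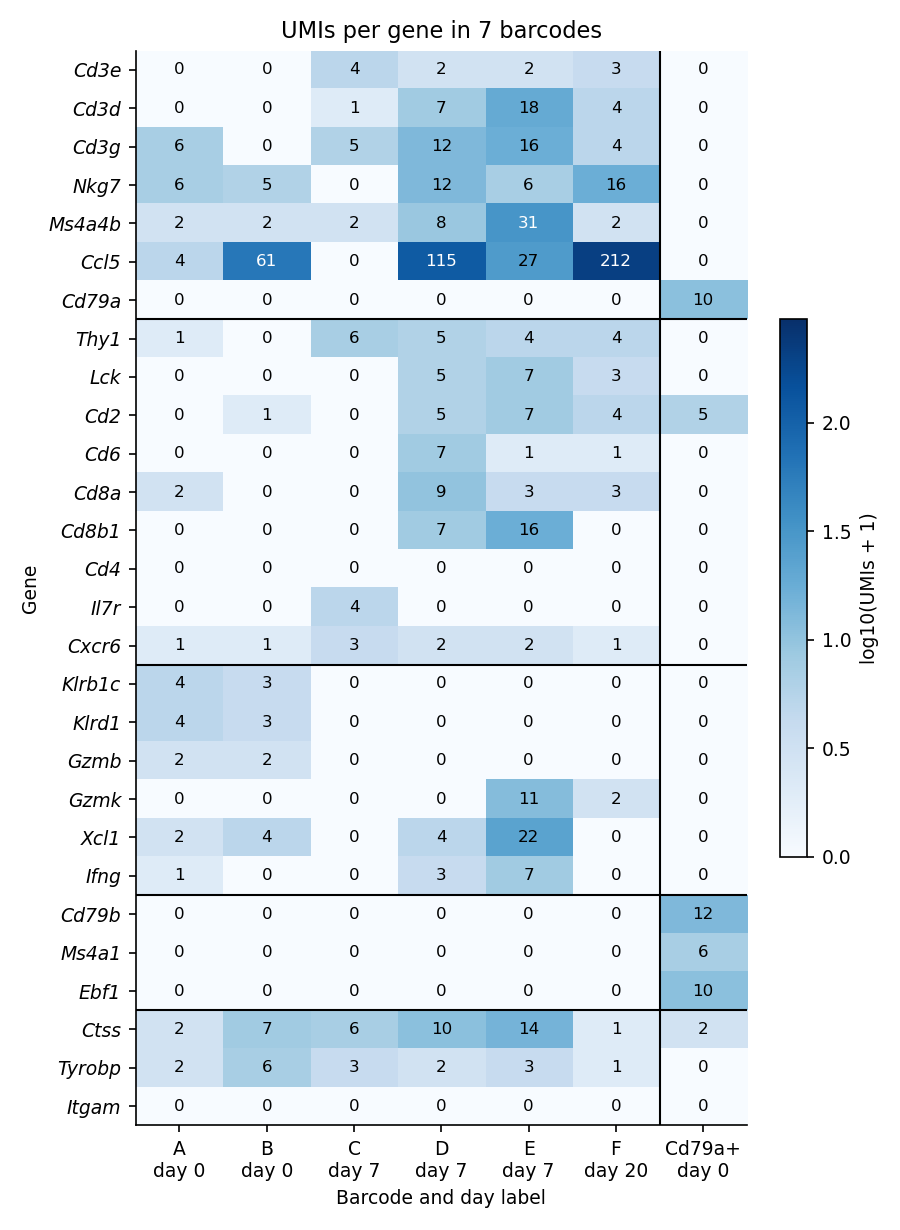
UMIs of 28 genes (vertical axis, 7 lymphocyte genes first, then T cell, NK, B cell and myeloid genes) in the leading barcodes A to F and in the barcode with Cd79a (horizontal axis, with the day), each count printed and shaded by log10(UMIs + 1). The CD3 genes are present together in C, D, E and F, A has Cd3g alone, and B has no CD3 transcript but 61 Ccl5 UMIs.

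Barcodes A and B came from mice kept in darkness. A, in day 0 replicate 1, held 6 Cd3g, 6 Nkg7, 2 Ms4a4b and 4 Ccl5 UMIs among only 815, of which 15.7% were mitochondrial. It also held 4 UMIs each of Klrb1c (NK1.1) and Klrd1 (CD94), receptors of NK cells, 2 of Cd8a, 2 of Gzmb (granzyme B) and 1 of Ifng (interferon γ). B, in day 0 replicate 2, held 5 Nkg7, 2 Ms4a4b and 61 Ccl5 UMIs among 4105 and no CD3 transcript. It also held 3 Klrb1c, 3 Klrd1, 2 Klre1 and 1 Ncr1 (NKp46) UMIs, all receptors of NK cells, with 2 Gzmb and 4 of the chemokine gene Xcl1.

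Barcodes C, D and E came from day 7 replicate 1. C held 4 Cd3e, 1 Cd3d and 5 Cd3g UMIs among 4066 and no Nkg7 or Ccl5. It carried 6 Thy1, 4 Il7r (interleukin-7 receptor), 4 Ltb (lymphotoxin β), 3 Cxcr6 and 2 Zap70 UMIs, and no Cd8a. D held 2 Cd3e, 7 Cd3d, 12 Cd3g, 12 Nkg7, 8 Ms4a4b and 115 Ccl5 UMIs among 9847. The coreceptor genes Cd8a and Cd8b1 had 9 and 7 UMIs in D, and the kinase gene Lck had 5. E held 2 Cd3e, 18 Cd3d, 16 Cd3g, 6 Nkg7, 31 Ms4a4b and 27 Ccl5 UMIs among 12518. It carried 16 Cd8b1, 3 Cd8a, 11 Gzmk (granzyme K), 22 Xcl1 and 7 Ifng UMIs. D and E thus both carried CD3, CD8 and Xcl1 transcripts, with more Ccl5 in D and Gzmk in E alone of the pair.

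Barcode F, from day 20 replicate 2, held 3 Cd3e, 4 Cd3d, 4 Cd3g, 16 Nkg7, 2 Ms4a4b and 212 Ccl5 UMIs among 5281. Ccl5 was highest here of all barcodes. F also held 3 Cd8a, 2 Gzmk, 3 Lck, 3 Cd5 and 3 Cxcr3 UMIs. No leading barcode had a UMI of Cd4, of the regulatory T cell gene Foxp3, or of Ccr7, which guides naive lymphocytes to lymph nodes. Foxp3 had 0 UMIs in all 1365 barcodes, Cd4 had 4 UMIs in 3 barcodes and Ccr7 had 55 in 11. The absence of Foxp3 and Cd4 therefore does not tell T cell subsets apart. Cxcr6 (a chemokine receptor of activated and resident T cells) and Ctsw (cathepsin W of cytotoxic lymphocytes) had at least 1 UMI in all 6 leading barcodes. No leading barcode had a UMI of Itgam, the gene of the CD11b protein used for the sort. Itgam was sparse everywhere, with 251 UMIs in 169 of the 1365 barcodes.

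CD3 transcripts occurred in 33 barcodes with 113 UMIs, 84 of them in leading barcodes. All 3 CD3 genes were present in 4 barcodes, all of them leading, exactly 2 in 1 barcode and a single CD3 gene in 28, of which A was 1. Of the 7 barcodes with Cd3e, 5 also held Cd3g (71.4%, exact binomial 95% interval 29.0 to 96.3%), and 4 also held Cd3d. Of the 17 barcodes with Cd3d, only 4 held Cd3g, all leading. Ms4a4b was in 11 barcodes, 7 of which also held Nkg7 and 5 of which held Cd3g. The barcodes with Cd3g held Ccl5 in 12 of 18 cases (66.7%, 41.0 to 86.7%), against 10.1% of the barcodes without Cd3g. However, 13 of these 18 came from day 7 replicate 1, where 23.7% of all barcodes held Ccl5, whereas the 10.1% pools all libraries. Barcodes with the CD3 genes were also deeper, with a median of 1446 UMIs against 549 in the rest, and co-detection rises with depth.

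Ctss and Tyrobp were present in most barcodes with a CD3 transcript, as in most barcodes of the sort. At least 1 of the pair was found in 29 of the 33 barcodes (87.9%, 71.8 to 96.6%) and in 82.8% of the barcodes without CD3. After each barcode was thinned to 500 UMIs, the order turned, with 78.8% against 90.0%. The 78.8% rested on an expected 12.7 barcodes with CD3. By day, the counts were 2 of 2 at day 0, 20 of 24 at day 7 and 7 of 7 at day 20. A UMI of Ctss or Tyrobp was thus common in barcodes with and without CD3.

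The amount of Ctss and Tyrobp was low in most of the leading barcodes. Ctss made up 24.5, 17.1, 14.8, 10.2, 11.2 and 1.89 of 10000 UMIs in A to F, against 58.7 to 90.1 in the other barcodes of their libraries. Tyrobp made up 24.5, 14.6, 7.38, 2.03, 2.40 and 1.89 of 10000 UMIs, against 29.9 to 36.3. Both lay below the pooled rate of the other barcodes of the library in all 6, but in A, the shallowest, 24.5 stands for only 2 UMIs of each gene. Set against single barcodes with at least 1000 UMIs in the same library, Tyrobp in A was at the median (24.2), and 50.8% of those barcodes were as low or lower. For Ctss in A that share was 30.5%, and in B it was 11.3% for Ctss and 25.8% for Tyrobp. In C to F the shares were 0 to 15.4% for Ctss and 1.92 to 9.62% for Tyrobp. Tyrobp was thus lowest in C to F, whereas for Ctss B lay within their range. Pooled over the 6 barcodes, the rates were 10.9 for Ctss and 4.64 for Tyrobp, against 69.6 and 29.0 over all barcodes.

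**Figure D2:**
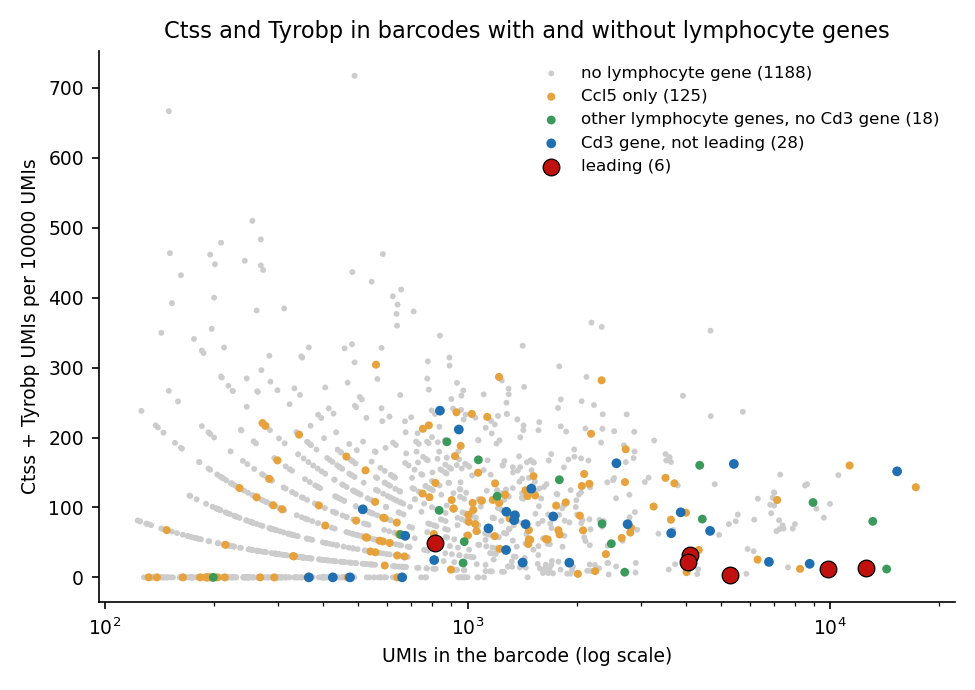
Summed Ctss and Tyrobp UMIs per 10000 (vertical axis) against the UMIs of each barcode (horizontal axis, log scale) for all 1365 barcodes, coloured by the lymphocyte genes they hold. Leading barcodes B to F lie near the bottom among barcodes of like depth, A lies higher at 815 UMIs, and the 28 other barcodes with a CD3 transcript (blue) are more widely spread.

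The other barcodes with CD3 were less uniform. The 28 barcodes with CD3 outside the leading 6 had 60.1 Ctss and 28.7 Tyrobp UMIs per 10000, and 27 of them had a single CD3 UMI. The 20 barcodes with 2 or more of the genes that were not leading had 55.8 and 21.1 UMIs per 10000 and a median of 3982 UMIs. Of these 20, 18 held Ccl5, 10 held a CD3 transcript, and 18 held Ctss. Single CD3 UMIs were most numerous in the library that held C, D and E, with 14 of the 27 in day 7 replicate 1. These 14 barcodes had 38.2 Ctss and 29.1 Tyrobp UMIs per 10000, against 58.7 and 33.4 in that library without its leading barcodes. Whether those UMIs were free RNA, doublets or transcripts of the cell was not tested. As a comparison class, the 85 barcodes in which rod genes made up at least 5% of UMIs (median 773 UMIs, 76 of them from day 0) held no CD3 UMI, which allows a share of up to 4.25% by the exact interval. Ccl5 was found in 2 of those 85 (2.35%, 0.286 to 8.24%).

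Over the days, the CD3 genes were most abundant in day 7 replicate 1. Their summed UMIs were 7, 0 and 0 in replicates 1, 2 and 3 of day 0, 83, 5 and 1 at day 7, and 2, 14 and 1 at day 20. As CPM these were 32.5, 0 and 0, then 266, 41.0 and 21.2, then 16.1, 75.9 and 16.9. The days overlapped, since day 0 replicate 1 lay above day 7 replicate 3 and above 2 of the day 20 libraries. All but 1 of the 7 day 0 UMIs were in barcode A.

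**Figure D3:**
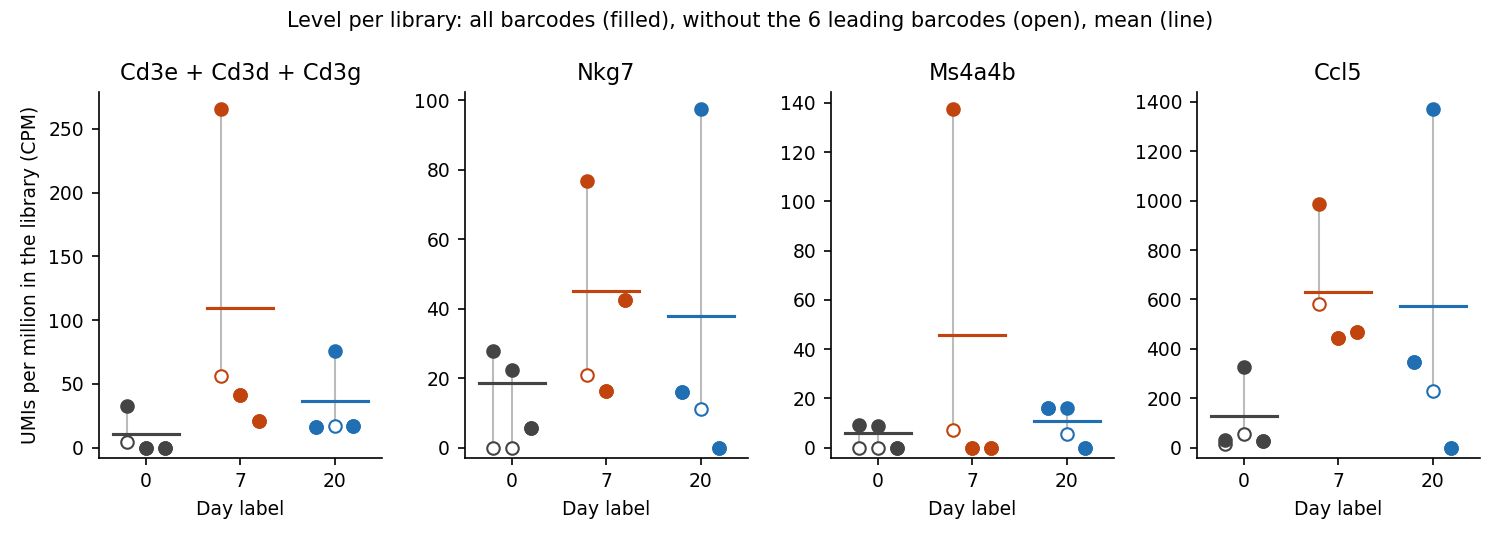
Levels in CPM (vertical axes, a scale for each panel) of the summed CD3 genes, Nkg7, Ms4a4b and Ccl5 in the 9 libraries by day (horizontal axes), with replicates 1 to 3 from left to right, filled circles for all barcodes, open circles without the 6 leading barcodes and lines for the means of the filled circles. Day 7 replicate 1 falls from 266 to 55.9 CPM for the CD3 genes when the leading barcodes are left out, and only Ccl5 stays above 200 CPM in any library.

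Without the leading barcodes the summed CD3 level was 4.66, 0 and 0 CPM at day 0, 55.9, 41.0 and 21.2 CPM at day 7 and 16.1, 16.7 and 16.9 CPM at day 20. Every light library then lay above the 3 day 0 libraries, but the light libraries rested on 28 UMIs in all, and 3 of the 6 levels were below what a count of 0 allows in their library. The share of barcodes with a CD3 transcript averaged 0.392% at day 0, 4.16% at day 7 and 1.62% at day 20. After thinning to 500 UMIs, which left out 202, 180 and 242 barcodes, the shares for the 3 days in turn were 0.431% ± 0.746, 2.75% ± 1.68 and 1.62% ± 1.11 (SD over 3 libraries).

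Nkg7 and Ms4a4b were highest in libraries with leading barcodes, which follows in part from picking those barcodes by these genes. Nkg7 had 6, 5 and 1 UMIs at day 0, 24, 2 and 2 at day 7 and 2, 18 and 0 at day 20. Ms4a4b had 2, 2 and 0 UMIs at day 0, 43, 0 and 0 at day 7 and 2, 3 and 0 at day 20. Both genes overlapped between the days, and the libraries with the highest counts were those of D and E for both genes and of F for Nkg7. The share of barcodes with 2 or more of the lymphocyte genes went from 0.408% ± 0.355 in darkness to 2.86% ± 2.55 on day 7 and 1.40% ± 1.28 on day 20 (SD over 3 libraries). Day 7 replicate 1 supplied 14 of the 17 such barcodes of day 7. After thinning to 500 UMIs the shares for the 3 days in turn were 0.521% ± 0.489, 0.608% ± 0.945 and 0.689% ± 0.624. At that equal depth the days did not stand apart. After thinning to 1000 UMIs, which left out 328, 292 and 344 barcodes, the shares were 0.454% ± 0.787, 1.91% ± 2.58 and 1.08% ± 1.81. Their means kept the unthinned order, with each SD above its mean. With Ccl5 left out and no thinning, the shares were 0.408%, 0.830% and 0.419%.

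Ccl5 was the one gene of the set found widely outside the leading barcodes. Its UMIs were 7, 73 and 5 at day 0, 308, 54 and 22 at day 7 and 43, 253 and 0 at day 20, which is 32.5, 329 and 28.0 CPM, then 985, 442 and 467 CPM, then 346, 1371 and 0 CPM. Of the 73 UMIs in day 0 replicate 2, barcode B held 61. The day 7 libraries all lay above the day 0 libraries, and day 20 spanned both. Without the leading barcodes Ccl5 stood at 14.0, 55.0 and 28.0 CPM at day 0, 580, 442 and 467 CPM at day 7 and 346, 229 and 0 CPM at day 20. In day 20 replicate 3, a count of 0 allows up to 50.8 CPM.

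The spread of Ccl5 over barcodes gave the same order of days. A UMI of Ccl5 was found in 1.76, 2.55 and 2.41% of the barcodes at day 0, in 23.7, 23.7 and 15.6% at day 7 and in 10.7, 10.7 and 0% at day 20. After thinning to 500 UMIs the means for the 3 days in turn were 2.34% ± 0.591, 15.1% ± 1.93 and 6.33% ± 6.19 (SD over 3 libraries). The day 7 libraries again lay above all of day 0, and 2 of the day 20 libraries did.

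**Figure D4:**
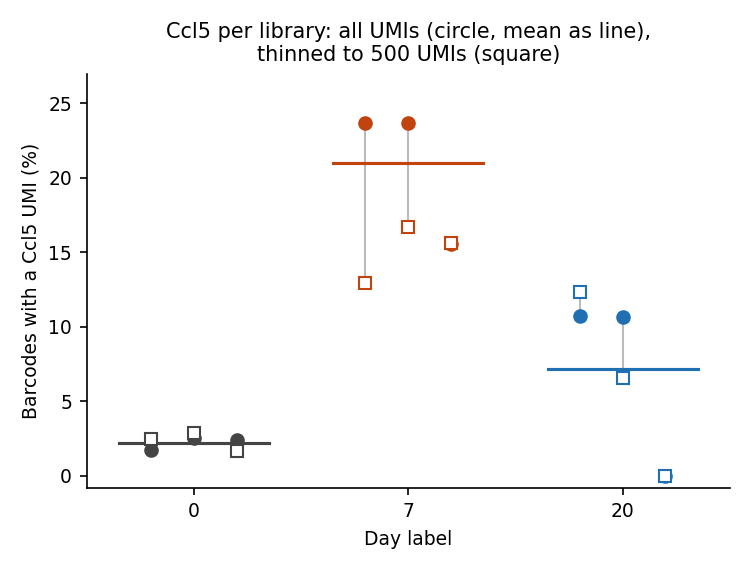
Percent of barcodes with at least 1 Ccl5 UMI (vertical axis) in each of the 9 libraries by day (horizontal axis), as circles over all UMIs with their mean as a line, and as squares after thinning to 500 UMIs. The 3 day 7 libraries lie above the 3 day 0 libraries on both scales, and day 20 replicate 3 lies at 0.

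Barcodes with Ccl5 but no CD3 transcript had pooled Ctss and Tyrobp rates near those of the remaining barcodes at days 7 and 20. At day 0 their rates were lower. Deep barcodes weigh most in these pooled rates. Of 148 barcodes with Ccl5, 134 had no CD3 transcript, 10 of them at day 0, 90 at day 7 and 34 at day 20. A UMI of Ctss or Tyrobp was found in 116 of the 134 (86.6%), against 82.5% of the remaining barcodes. At day 7, Ctss made up 57.1 of 10000 UMIs in these barcodes against 54.1 in the remaining ones, and Tyrobp 29.3 against 29.0. At day 20 the values were 77.2 against 78.7 for Ctss and 27.1 against 31.4 for Tyrobp. At day 0 they were 51.8 against 76.6 and 16.4 against 28.5, with B among the 10 barcodes. The remaining barcodes included those with both Ccl5 and CD3, among them D, E and F. Barcodes without any Ccl5 had 76.7, 58.7 and 78.2 Ctss UMIs per 10000 at days 0, 7 and 20. For Tyrobp they had 28.5, 31.7 and 31.7.

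The Ccl5 UMIs themselves were uneven. In 101 of the 148 barcodes a single UMI was found, while 10 barcodes with at least 10 UMIs held 563 of the 765. The barcode just below that limit had 7 UMIs, and 4 of the 10 were leading. Outside the leading barcodes, the highest was a barcode of day 7 replicate 1 with 64 Ccl5, 1 Cd3e and 1 Cd3g UMIs among 6778. It also held 271 UMIs of Cd74 and 119 of H2-Ab1, which serve antigen presentation by MHC class II, 13 of Klrd1 and 4 of Flt3, a receptor of dendritic cell development. A barcode of day 7 replicate 2 held 12 Ccl5 UMIs and 39 of Ccr7, the receptor of migrating dendritic cells and naive T cells. A barcode of day 20 replicate 2 held 21 Ccl5 UMIs beside 342 Ccl4, 195 Ccl3, 177 C1qa and 165 Ctss UMIs among 17231, a set of microglial and macrophage transcripts.

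Ccl5 was the only gene of the set with enough counts for the fit across genes (edgeR's quasi-likelihood test on UMIs summed per library, Benjamini-Hochberg adjusted over 2562 genes). Since the gene was chosen on these counts, its changes are given without a p-value. The log2 change of Ccl5 was 2.50 (SE 1.06) at day 7 against day 0, 2.23 (SE 1.05) at day 20 against day 0 and -0.27 (SE 0.98) at day 20 against day 7. Over all genes tested, 6.36%, 1.25% and 0.117% were called at an adjusted p under 0.05 in these comparisons, from which nothing is read about Ccl5. With the deposited counts, the changes from day 0 were 1.05 at day 7 and 0.82 at day 20. Without the 6 leading barcodes, an alternative chosen after seeing the data, they were 4.11 and 2.67. Those barcodes were picked by UMIs of these genes, Ccl5 included, so these changes follow in part from that choice. Leaving them out kept 20 of 85 Ccl5 UMIs at day 0, 242 of 384 at day 7 and 84 of 296 at day 20. Without day 0 replicate 2, the library of B, the day 7 change was 4.55.

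Cd79a was confined to 1 barcode of day 0 replicate 2, with 10 UMIs among 2713. This barcode also held 12 UMIs of Cd79b, the partner of CD79A in the B cell receptor, 11 of Ly6d, 10 of the B cell transcription factor gene Ebf1 and 6 of Ms4a1 (CD20). MHC class II transcripts were present, with 60 Cd74 and 12 H2-Ab1 UMIs. It held 2 Ctss UMIs, no Tyrobp, no Itgam and no other gene of the set. It also held 5 UMIs of Cd2, a gene counted in the T cell receptor list below. The 6 libraries after light had no Cd79a in barcodes assigned to them, which at their depth allows between 9.60 and 63.7 CPM. Of the B cell list, 11 of 12 measured genes were detected, with 109 UMIs, and only 1 of these UMIs was in a leading barcode.

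The sharing of barcodes between libraries bears on the day of these transcripts. Barcodes B to F were listed in all 9 libraries and A in 2, each with far more UMIs in 1 library than in the others. Barcode F, for example, held 212 Ccl5 UMIs in day 20 replicate 2 and 56 to 74 in each of the other 8. Copies, meaning listings of a barcode in libraries other than its own, held 36.4% of the deposited UMIs of Cd3e, 50.0% of Cd3d, 52.9% of Cd3g, 62.5% of Nkg7, 57.0% of Ms4a4b, 59.3% of Ccl5 and 60.0% of Cd79a, against 51.7% over all genes. The copies of the leading barcodes held 97.1% of the copied Ms4a4b UMIs and 90.5% of the copied Cd3g UMIs.

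**Figure D5:**
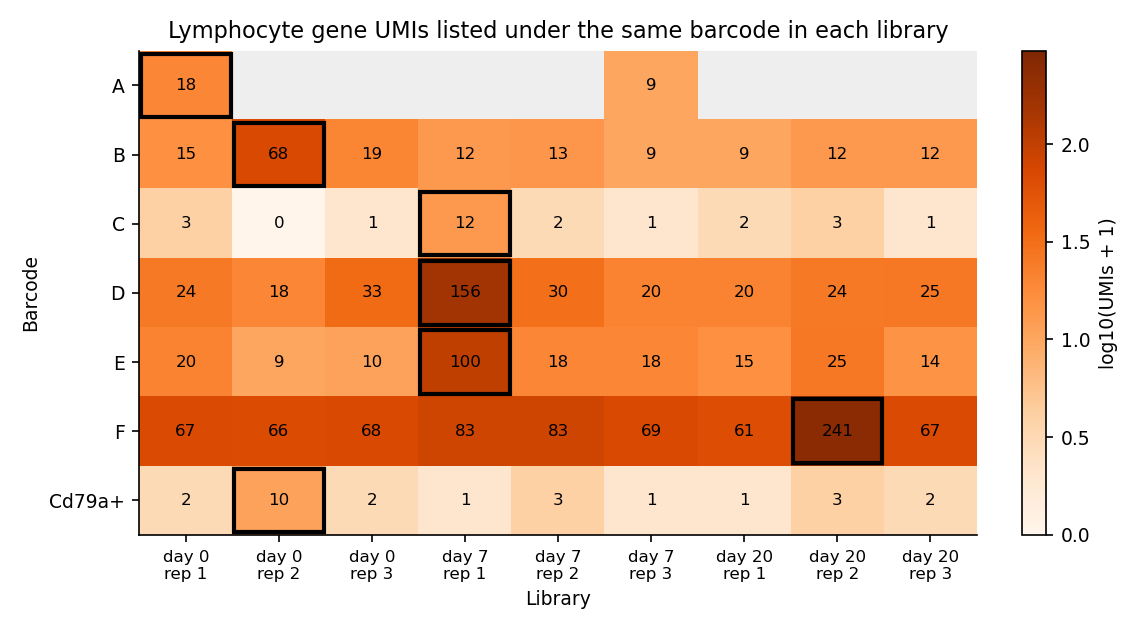
Summed UMIs of the 7 lymphocyte genes listed under the leading barcodes A to F and the barcode with Cd79a (vertical axis) in each of the 9 deposited libraries (horizontal axis), shaded by log10(UMIs + 1), with the assigned library framed and libraries that do not list the barcode in grey. F holds 241 UMIs in its own library and 61 to 83 in each of the other 8.

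At day 0 the copies changed what was seen. As deposited, the day 0 libraries listed 30 Cd3g UMIs, of which 23 were copies, all of barcodes assigned to day 7 or day 20. All 13 Cd3d and both Cd3e UMIs listed at day 0 were likewise copies of later barcodes. For Ccl5, 434 UMIs were listed at day 0, of which 349 were copies and 322 were copies of later barcodes. UMIs of the lymphocyte genes were thus listed under D, E and F in all 9 libraries, whatever their day. How barcodes came to be listed in several libraries was not tested.

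Other genes of T cells and NK cells were read from lists of known markers. Of 14 measured genes of the T cell receptor complex and its signalling, 13 were detected and all 13 were present in leading barcodes, which held 130 of their 259 UMIs. Of 18 genes of NK cells and cytotoxicity, 17 were detected and 14 were present in leading barcodes, which held 106 of 323 UMIs. Of 27 genes of T cell subsets and homing, 25 were detected and 19 were in leading barcodes, with 118 of 2509 UMIs, but Klf2 alone, a transcription factor also of endothelial and myeloid cells, supplied 2051 of those UMIs. By contrast, leading barcodes held 318 of the 94779 UMIs of 15 myeloid genes (0.336%), 37 of the 16083 UMIs of 13 chemokine and receptor genes and 25 of the 726 UMIs of the 3 sort antigen genes. Of 7 dendritic cell genes detected, the leading barcodes held 10 of 834 UMIs. Counted as genes present in leading barcodes, these lists gave 14 of 15 myeloid and 5 of 13 chemokine and receptor genes. They also gave 2 of 3 sort antigen genes and 1 of the 7 dendritic cell genes. Gene presence alone thus did not set the T cell and NK lists apart from the myeloid list.

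The genes of the first 2 lists together, without Cst7 (cystatin F, also of activated microglia), summed to 163, 212 and 112 CPM at day 0, 800, 188 and 84.9 CPM at day 7 and 169, 271 and 152 CPM at day 20. The days overlapped, and the difference between the 6 light libraries and day 0 was 116 CPM (two-sided exact permutation test over libraries, p = 0.631, smallest possible 0.0119). Day 7 replicate 1, the library of C, D and E, carried most of it, since the difference without that library was 11.1 CPM (exact permutation test, p = 0.839). In barcodes listed in only 1 library, none of them leading, the difference was 196 CPM over a day 0 mean of 28.4 CPM. There 6 of 6 light libraries lay above the highest day 0 library (exact permutation test, p = 0.0238). Without the leading barcodes, which were picked by UMIs of the lymphocyte genes, the difference was 84.2 CPM (exact permutation test, p = 0.0952). Of the genes in these sums, Lcp2 had 5 of 57 UMIs in leading barcodes and Klrd1 7 of 45. The median gene had 65.2% there in the T cell receptor list and 41.7% in the NK list with Cst7 included. Whether the UMIs outside came from lymphocytes was not tested. Of the alternatives to the 116 CPM, 12 were counted as unchanged and 1 as passing the threshold, that of barcodes listed in 1 library. The lists were chosen with earlier results of these data known, so no rise with light is read from these p-values. The summed level of the 7 measured lymphocyte genes themselves was 102, 405 and 33.6 CPM at day 0, 1465, 500 and 531 CPM at day 7 and 394, 1561 and 16.9 CPM at day 20. Most of it was Ccl5, which on average supplied 130 of 180 CPM at day 0, 632 of 832 at day 7 and 572 of 657 at day 20.

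In the test across genes, none of the T cell receptor or B cell list had enough counts, and of the NK list only Cst7 was tested and was not called (log2 change 0.33 at day 7). Of the genes of subsets and homing, Klf2 fell by 3.50 on the log2 scale at day 7 (edgeR, adjusted p = 0.00283). Of 13 chemokine and receptor genes, 9 were tested at day 7, of which 1 rose, 1 fell and 7 were not called, with a median log2 change of -1.29 against -0.04 over all genes tested. The gene that rose was Cxcl16, the ligand of CXCR6, whose transcript was present in all leading barcodes. Cxcl16 stood at 41.8, 63.0 and 67.2 CPM at day 0, 224, 164 and 467 CPM at day 7 and 233, 195 and 169 CPM at day 20. Every light library lay above every day 0 library. The log2 change was 2.38 (SE 0.43, edgeR, adjusted p = 0.00509) at day 7 and 1.83 (edgeR, adjusted p = 0.0597) at day 20. Under 16 alternatives it passed 0.05 in all 16 at day 7 and in 4 at day 20 (adjusted p from 0.0211 to 0.329). The size of the change varied, and it was smallest with the deposited counts, at 0.94 at day 7 and 0.66 at day 20. The gene that fell was Cx3cr1, the fractalkine receptor of microglia, by 1.48 on the log2 scale (edgeR, adjusted p = 0.0490). Ccr1, a receptor of CCL5, had a log2 change of -2.84 and was not called (edgeR, adjusted p = 0.103). Ctss (-0.29, edgeR, adjusted p = 0.683) and Tyrobp (0.06, edgeR, adjusted p = 0.961) were not called at day 7. Of the 15 myeloid genes, 1 rose and 4 fell at day 7, and of 7 tested rod genes all 7 fell.

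The genes most like the set were those whose barcodes lay most often among the 26 with 2 or more of the lymphocyte genes, among 8149 genes found in at least 10 barcodes. Runx3, a transcription factor of CD8 T cells and NK cells, led with 7 of 11 barcodes (63.6%). Traf1, an adaptor of tumour necrosis factor receptors, followed with 60.0%, and Ccnd2 (cyclin D2), Suco, St8sia4, Fam102a and Ahnak had 50.0% each. Pyhin1 had 46.2%, and Cd2, Cxcr4 and Ppfia1 had 45.5%. Cd2 encodes an adhesion molecule of T cells and NK cells, but it was also present in the barcode with Cd79a. Ptprcap, which binds CD45 in lymphocytes, had 45.0%, and Cxcr6 and Esyt2 had 42.9%. These genes differed in how many of the barcodes so counted were leading. For Cxcr6 it was 6 of 6 and for Runx3 5 of 7, but for Traf1 1 of 6 and for Ppfia1 1 of 5. The median over the 8149 genes was 7.69%, and the 26 barcodes share depth (median 4099 UMIs) as well as the lymphocyte genes.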

How the data were processed

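Retinal cells sorted as CD45+ CD11b+ were captured in droplets in 9 libraries (10x Genomics 3′ version 2 chemistry). The deposited values are the authors' counts of UMIs per gene and barcode, not normalized. Cell Ranger and mm10 are named in the submitters' processing notes, with no version given in the sources used here. Whether counting used strand is not given in the sources used here either.

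The lymphocyte genes and the gene lists were chosen with earlier results of these data known. Each barcode was kept only in the library where its UMI total was highest. CPM are UMIs per 1000000 UMIs of the library's kept barcodes. The library was the replicate, and counts summed per library were tested with edgeR 4.0.16 (R 4.3.3, TMM, filterByExpr, quasi-likelihood test, all 9 libraries in 1 fit, Benjamini-Hochberg at 0.05). The step was tested on simulated data. DESeq2 1.42.0 was an alternative. For summed levels, the libraries of the 2 sides were permuted exhaustively (two-sided exact permutation test, scipy 1.17.1). Values in text and figures came from Python 3.11.15. Thinning to 500 UMIs gave each barcode's expected share with a UMI. Intervals are exact binomial (Clopper-Pearson, 95%), and they and the limits from a count of 0 (3 counts) cover counting error only. No doublet caller and no clustering were run.

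Named genes were the 8 lymphocyte genes, Ctss, Tyrobp, listed genes with a UMI in barcodes holding 2 or more of the lymphocyte genes, and the 15 other genes in at least 10 barcodes that lay most often in such barcodes. Barcodes with at least 10 Ccl5 UMIs, and the genes given for them and for the leading barcodes outside that rule, were chosen after their values were seen. Alternatives were the deposited counts, barcodes listed in 1 library, barcodes with at least 200 genes and under 10% mitochondrial UMIs, other scalings, no low-count filter, a replicate block, other thinning depths, each library left out, and no leading barcodes. Trbc2 and other receptor and immunoglobulin constant genes were not analysed here. Some genes that the rule names are not reported here. Positions and windows came from GENCODE and RefSeq tables of GRCm38, in which 98.7% of the gene identifiers were found, and window entries existed for 6 of the 8 genes.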

Additional observations from a re-analysis of the deposited data

How the results depend on the processing

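Of 208 alternative values, 158 were counted as unchanged, 37 moved, 10 passed the threshold only under the alternative and 3 turned direction. For counts of called genes, unchanged meant within a fixed fold of the main count. For the share of CD3 barcodes with Ctss or Tyrobp, it meant inside the exact interval of the main value. Other values were unchanged if they kept their direction and side of the threshold, or stayed within the replicate spread. The limits are the depth, with 47109 UMIs in the shallowest library, 7 of 8 genes measured, most of their UMIs in 6 barcodes, and barcodes listed in several libraries. The cause of the changes below was not tested.

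Genes called by edgeR at day 7 against day 0 numbered 163, against 44 with the deposited counts, 252 with no low-count filter and 44 (without day 7 replicate 2) to 316 (without day 7 replicate 3) with 1 library left out, with 64 without day 7 replicate 1 and 76 without day 0 replicate 1. DESeq2 called 172. At day 20 against day 0, 32 were called, against 0 with the deposited counts (401 at an unadjusted p under 0.05), 51 with DESeq2, 117 with no filter and 2 (without day 0 replicate 1) to 54 (without day 0 replicate 2) with 1 library left out. At day 20 against day 7, 3 were called, against 0 with the deposited counts (166 at an unadjusted p under 0.05), 12 with DESeq2, 12 with the barcode quality filter, 44 with no filter and 0 (without day 7 replicate 1 or 2, or day 20 replicate 1 or 2) to 11 (without day 20 replicate 3) with 1 library left out.

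The replicate numbers were not taken as pairs. Same-numbered libraries correlated between -0.0796 and 0.407 in their deviations, 7 of 9 correlations lay over 0.1, and 7 of 9 libraries correlated best with their own number. With a replicate block the 3 counts were 248, 69 and 11, the log2 change of Ccl5 at day 7 was 3.38, and that of Cxcl16 at day 20 was 1.88 (edgeR, adjusted p = 0.0248).

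At day 20, Cxcl16 also passed the threshold with DESeq2 (1.85, adjusted p = 0.0246), with the barcode quality filter (edgeR, 1.98, adjusted p = 0.0345) and without day 7 replicate 3 (edgeR, 1.90, adjusted p = 0.0211). With the deposited counts its change was 0.66 (edgeR, adjusted p = 0.257).

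Ccl5 at day 20 against day 7 turned direction without day 7 replicate 1 (0.26), without day 20 replicate 1 (0.0065) and without day 20 replicate 3 (0.30), and ran from -1.90 to 0.30 over the libraries left out. At day 20 against day 0 it ran from 0.60 without day 20 replicate 2 to 4.29 without day 0 replicate 2. Without day 7 replicate 1, day 7 against day 0 gave 1.96.

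The difference in the summed level of the lymphocyte genes between light and day 0 was 564 CPM, against 356 in barcodes listed in 1 library, 344 without the leading barcodes and 401 to 710 with 1 library left out. Most of that level was Ccl5, with means of 130, 632 and 572 CPM at days 0, 7 and 20. For the other T cell and NK genes the difference was 116 CPM, against 196 in barcodes listed in 1 library and 11.1 to 154 with 1 library left out. The share of barcodes with 2 or more of the genes was 0.408% at day 0, against 0.944% as deposited, 0% in barcodes listed in 1 library, 0% without the leading barcodes and 0.294 to 0.613% with 1 library left out. At day 7 it was 2.86%, against 0.260% in barcodes listed in 1 library, 0.260% after thinning to 200 UMIs and 1.39 to 3.65% with 1 library left out. At day 20 it was 1.40%, and 0.847 to 2.11% with 1 library left out. Thinned to 200 UMIs, day 0 gave 0.243% and day 20 gave 0.205%. Thinned to 1000 UMIs, days 0, 7 and 20 gave 0.454%, 1.91% and 1.08%. Ctss or Tyrobp was found in 87.9% of barcodes with CD3, against 66.7% as deposited and 50.0% (3 of 6) in those listed in 1 library. The exact interval of the 50.0% ran from 11.8 to 88.2%. In barcodes without CD3 the shares were 82.8%, 80.3% and 73.5% in turn, so the order turned in these alternatives. It also turned with the barcode quality filter (93.3% against 95.4%) and held without the leading barcodes (85.7% against 82.8%).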
